A study of Gallus gallus with 5 samples.

Results

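The genes described here are SLC7A11, CTH, CHAC1 and GSTA3, which stand for cystine import, transsulfuration, glutathione breakdown and glutathione conjugation. They were found by matching the RefSeq accession of each row, without its version, to these chicken symbols, and all 4 had 1 feature among the 16143 features measured. The list was drawn up from the difference between +dox and -dox libraries, so that difference is given for these genes as a description and carries no test. RNA was sequenced from DT40, a chicken B-cell lymphoma line, in which CAP-H, the kleisin subunit of the chromosome-compacting complex condensin I, had been altered, and all 5 libraries came from cells labelled as CAP-H KO. The 3 -dox libraries (replicates 1, 2 and 3) were labelled CAP-H on and received no doxycycline. The 2 +dox libraries (replicates 1 and 3) were labelled CAP-H off and came from cells given 100 ng/ml doxycycline for 36 h. No library came from doxycycline-treated cells that kept CAP-H, so effects of the drug and of the loss of CAP-H cannot be told apart. Neither separate cultures for the replicates nor a single clone for the line is stated in the labels, and the spread that the p-values rest on, that among these libraries, may therefore be technical.

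Glutathione is a tripeptide of glutamate, cysteine and glycine, and the supply of cysteine usually limits its synthesis. Cysteine reaches the cell as cystine through the SLC7A11 transporter, in exchange for glutamate, or is made from methionine by transsulfuration, in which CBS joins homocysteine to serine and CTH cleaves the product. CHAC1 cuts glutathione inside the cell, and glutathione S-transferases such as GSTA3 attach it to electrophiles. In mammalian cells SLC7A11, CTH and CHAC1 are known targets of the stress-induced transcription factor ATF4, and SLC7A11 is also a target of NRF2. Cultured lymphoid cells are known to depend on cysteine or cystine in their medium.

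Total counts ranged from 12199522 to 22533003 per library, and the share of the 10 most abundant features was 6.46% to 6.63% in -dox libraries against 11.3% and 12.1% in +dox libraries. Within a group, log2 CPM (counts scaled to the library size) correlated at 0.988 to 0.993, and no pair of libraries agreed within sampling noise. No row matched NCAPH, the gene of CAP-H (0 rows), so the labels could not be checked by the targeted gene. A predicted RNA without a symbol, XR_140315.1, stood at 18.1 ± 0.941 CPM (SD, n = 3) in -dox and 16011 ± 514 CPM (SD, n = 2) in +dox libraries. Among rows with a symbol the one directly before it on chromosome 22 is TACR1. RefSeq (GRCg7b) places NCAPH directly after TACR1 on that chromosome, with a span of 9.73 kb against 9.66 kb for XR_140315.1. The other nearest named genes were not shared, but only 52.3% of the deposited rows received a symbol and the assemblies differ (galGal4 and GRCg7b). A gene can thus be missing from either side, and this does not settle what XR_140315.1 is. MXD1, C2orf42 and PCYOX1 follow XR_140315.1, while MAT2L2, H2AZ2 and LOC124417356 follow NCAPH. Before TACR1 lie MOB1A and MTHFD2 in the deposited rows, and SLC4A5 and TSPAN15L in RefSeq. No source used here names XR_140315.1. If it is the CAP-H transcript, its level goes against the on and off labels. Every direction below is that between libraries labelled +dox and -dox, and would turn if these labels were exchanged. A gene "rose" or "fell" in +dox libraries where its adjusted p (Benjamini-Hochberg, over all 10079 features tested, from the quasi-likelihood test of edgeR) was under 0.05, as 22.6% and 23.7% of all features did (46.3% in all). B-cell markers were all 10 present, with a summed level of 1892 to 1956 CPM in -dox and 1452 and 1507 CPM in +dox libraries, and 7 of them fell and 1 rose. The 8 matched macrophage and granulocyte markers summed to 78.2 to 84.4 CPM against 37.3 and 37.5 CPM, with MARCO and CD14 at the smallest count in every library, and 4 of the 5 tested fell. T-cell markers summed to 95.2 to 105 and 108 CPM (mostly CD3D), fibroblast markers to 30.6 to 35.8 and 32.7 to 35 CPM (mostly COL1A2), and erythroid markers stayed under 0.5 CPM. The part of these shifts in the results below was not tested.

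SLC7A11, the light chain of the cystine/glutamate exchanger (galGal4 chromosome 4, 28379183 to 28433902), had 3764, 2204 and 1847 counts in the -dox libraries and 419 and 327 in the +dox libraries. On the scaled level this was 166, 150 and 153 CPM against 35.3 and 30.5 CPM. The -dox libraries were all high and the +dox libraries all low, with no overlap and a gap far wider than the spread within either group. The means were 156 ± 8.60 and 32.9 ± 3.38 CPM, 4.75-fold apart, and any pair of single libraries differed between 4.26-fold and 5.44-fold. The log2 fold change of +dox against -dox was -2.25 (SE 0.07), and 25 of the 10079 features tested had a lower one. In bulk RNA, fewer cells that express a gene and less of its RNA per cell cannot be told apart.

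CTH, the cystathionine gamma-lyase that releases cysteine at the end of transsulfuration (chromosome 8, 27955953 to 27971423), moved the other way. Its levels were 64.7, 77.5 and 67.2 CPM in the -dox libraries (1465, 1135 and 814 counts) and 101 and 108 CPM in the +dox libraries (1192 and 1161 counts). Both +dox libraries lay above all -dox libraries, and -dox replicate 2 was the nearest to them. The means were 69.8 ± 6.77 and 104 ± 5.62 CPM, a log2 fold change of 0.58 (SE 0.07), and 1067 features had a higher one. It was thus the smallest of the 4 differences, and it came to 0.40 with scaling by library size alone.

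CHAC1, which cleaves glutathione into pyroglutamate and cysteinylglycine (chromosome 5, 23730406 to 23732523), had 1708, 1127 and 983 counts in the -dox libraries and 237 and 205 in the +dox libraries. The levels were 75.5, 76.9 and 81.2 CPM against 20 and 19.2 CPM. They were the most even of the 4 genes within each group (SD of 0.055 on the log2 scale among -dox libraries), and the groups lay far apart. The means of 77.9 ± 2.97 and 19.6 ± 0.590 CPM were 3.98-fold apart, with a log2 fold change of -1.99 (SE 0.08), and 42 features had a lower one.

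GSTA3, an alpha-class glutathione S-transferase (chromosome 3, 87798972 to 87804664), was the least deeply covered, with 190, 138 and 71 counts in the -dox and 21 and 10 in the +dox libraries. The 95% exact Poisson interval of the count of 21 was 13 to 32.1 and that of the count of 10 was 4.80 to 18.4, covering counting error only. These intervals take each count as an independent read, and are too narrow if both mates of a pair were counted. Its levels were 8.39, 9.42 and 5.86 CPM against 1.77 and 0.934 CPM, so the groups did not overlap but each was uneven. Means were 7.89 ± 1.83 and 1.35 ± 0.592 CPM, and the ratio of -dox to +dox was 5.84, with single pairs of libraries from 3.31 to 10.1. The log2 fold change was -2.53 (SE 0.32), with 7 features lower. Leaving out +dox replicate 1 gave -3.09 and leaving out +dox replicate 3 gave -2.16. Alpha-class transferases are close paralogs that lie side by side, and the counting could have split reads among them, so the value of GSTA3 is uncertain.

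In all 4 genes the groups did not overlap, as in 64.9% of the features tested, and since the genes were chosen on this contrast nothing is read from that count. In the authors' deposited table, which was made from the same libraries and does not state its direction, the log2 fold changes were -2.37 for SLC7A11, 0.57 for CTH, -2.09 for CHAC1 and -2.49 for GSTA3. Its direction was read as +dox against -dox, because all 3479 features that it shares with those tested here had that sign.

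**Figure D1:**
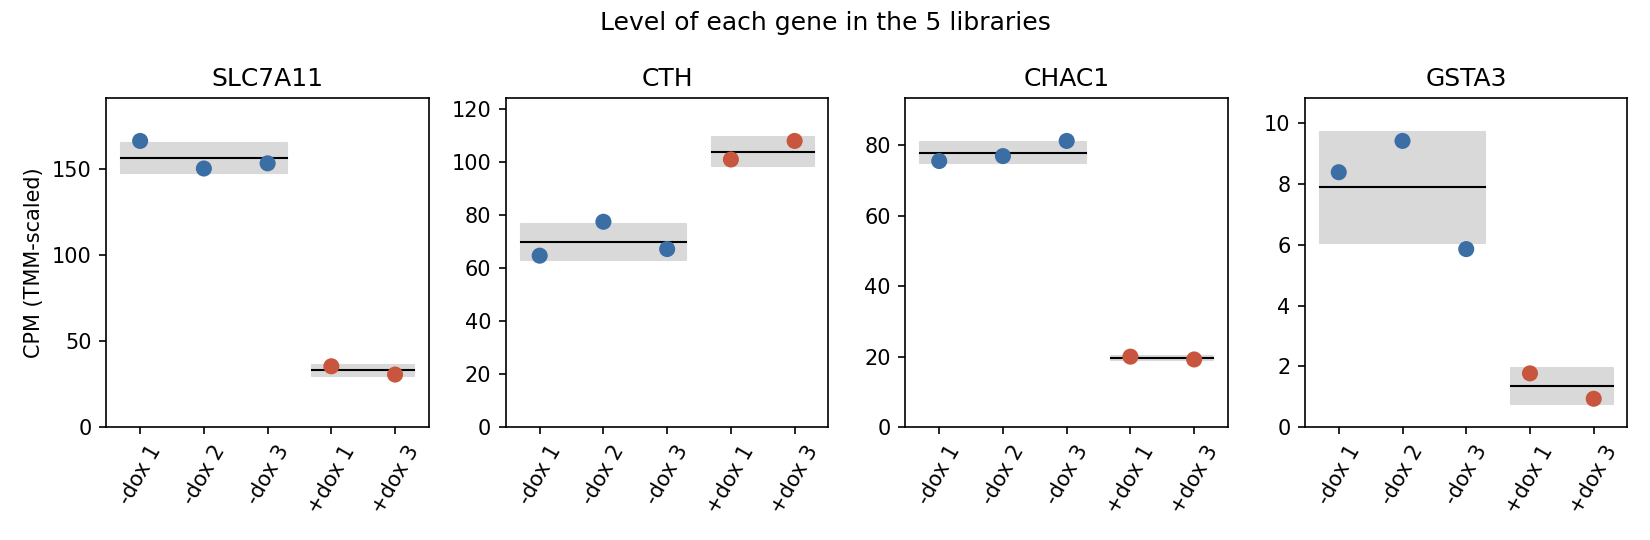
Level in CPM (linear axis from 0, scaled by the trimmed mean of M-values) of SLC7A11, CTH, CHAC1 and GSTA3 in the 3 -dox libraries (blue) and the 2 +dox libraries (red). Lines are group means and grey bands 1 SD; SLC7A11, CHAC1 and GSTA3 are lower in both +dox libraries and CTH is higher.

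Ratios of counts between these genes within a library do not depend on the scaling of libraries. They do depend on the length of each gene, so only their change between libraries is read. The genes were chosen on this contrast and the shifts follow from the log2 fold changes above, so they are only a description. A ratio of 2 RNAs does not measure the balance between routes. The count ratio of SLC7A11 to CTH, an import gene against a transsulfuration gene, was 2.57, 1.94 and 2.27 in the -dox libraries. It was 0.352 and 0.282 in the +dox libraries. Its mean shift on the log2 scale was -2.84. The ratio of CTH to CHAC1 was 0.858, 1.01 and 0.828 in -dox and 5.03 and 5.66 in +dox libraries, a shift of 2.58. By contrast, SLC7A11 to CHAC1 moved by -0.26, from 2.20, 1.96 and 1.88 to 1.77 and 1.60, so these 2 genes went down by nearly the same factor. SLC7A11 to GSTA3 overlapped between groups, at 19.8, 16.0 and 26 against 20 and 32.7, and so did CHAC1 to GSTA3, at 8.99, 8.17 and 13.8 against 11.3 and 20.5. CTH to GSTA3 had the widest shift, 3.17, from 7.71, 8.22 and 11.5 to 56.8 and 116.

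**Figure D2:**
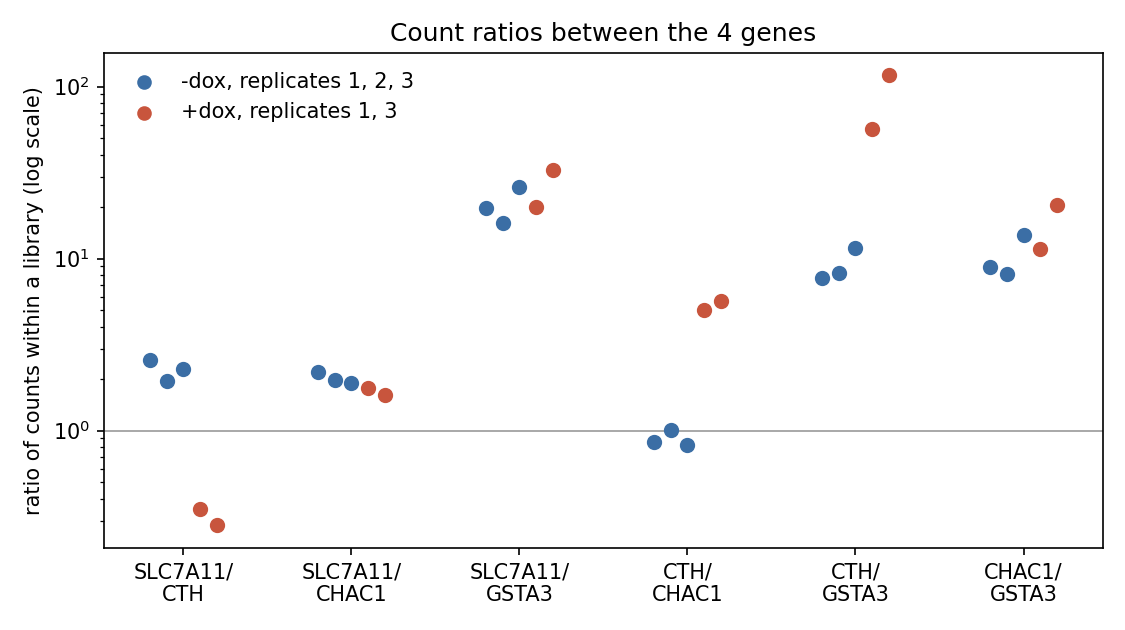
Ratio of raw counts between each pair of the 4 genes (log axis), 1 point per library, with -dox in blue and +dox in red. The 3 ratios that include CTH separate widely between the groups, while the other 3 lie close together or overlap. This follows from the differences on which the 4 genes were chosen.

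The other genes of cysteine and glutathione metabolism were read from 8 lists by role, holding 124 symbols, of which 74 were matched to a feature and 58 passed the filter on low counts. Of the 58, 15 rose (25.9%), 18 fell (31.0%) and 25 did not pass, with a median log2 fold change of -0.03. Together 56.9% of the 58 changed. Of all features 46.3% changed, 22.6% rising and 23.7% falling, with a median of 0.00. The lists as a whole thus had a similar median and somewhat larger shares, a difference that was not tested. The authors' deposited table lists 27 of the 58. Of the genes of these lists named below as risen or fallen, GCLM, TXN and EIF2AK2 are not in it. With scaling by library size alone, which shifted the median of all features by -0.18, 11 of the 58 rose and 31 fell (26.2% of the calls higher, against 45.5%). Single genes nevertheless differed widely, from a log2 fold change of -1.84 for CBS to 3.01 for HPGDS.

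Of the 3 tested genes of cystine and cysteine transport, 2 fell and none rose (0). SLC1A4, which carries neutral amino acids including cysteine, fell from 256 ± 4.22 to 135 ± 11 CPM (-0.92 on the log2 scale, SE 0.07, adjusted p = 3.2e-08). CTNS, the lysosomal cystine exporter, fell by 0.40 (SE 0.13, adjusted p = 0.019), a value that may be shared in part with the overlapping gene SHPK. The CTNS call was lost without -dox replicate 2 (-0.38, adjusted p = 0.054) and with the replicate number as a block (-0.38, adjusted p = 0.063). Both are nearly the same fit, since no +dox library is numbered 2 and the block sets that -dox library aside. Without +dox replicate 1 the value was -0.33. SLC3A2, the heavy chain that partners SLC7A11, was not matched and is not analysed here.

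In the methionine cycle and transsulfuration 2 of 6 tested genes rose and 2 fell. CBS, the enzyme directly before CTH, had 39, 29 and 19 counts in -dox and 10 and 1 in +dox libraries, and fell from 1.76 ± 0.208 to 0.468 ± 0.530 CPM (-1.84, SE 0.55, adjusted p = 0.012). This rests on few counts. Without +dox replicate 3 CBS stood at -1.05 (adjusted p = 0.17), and without +dox replicate 1, where the only +dox library is the one at the smallest count, the fit gave -4.12 (adjusted p = 0.0018). The differences of the 2 transsulfuration enzymes thus had opposite signs, with CTH higher and CBS lower in +dox libraries. AHCY, which makes homocysteine, rose from 922 ± 41.0 to 1327 ± 9.38 CPM (0.53, SE 0.05, adjusted p = 1.4e-07), with an overlapping unnamed feature. MAT1A, a methionine adenosyltransferase, rose from 4.90 ± 1.12 to 12.3 ± 0.391 CPM (1.32, SE 0.20, adjusted p = 5.7e-05). MTRR, which reactivates methionine synthase, fell by 0.30 (SE 0.09, adjusted p = 0.011), but came to -0.20 (adjusted p = 0.14) without +dox replicate 3.

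Enzymes that use cysteine or handle its sulfur gave 2 rises among 4 tested. GOT1, a cytosolic aminotransferase, rose from 56.6 ± 0.827 to 112 ± 9.23 CPM (0.98, SE 0.06, adjusted p = 4.0e-09), and TST, the sulfurtransferase rhodanese, rose by 0.78 (SE 0.12, adjusted p = 4.7e-05). For glutathione synthesis the subunits of glutamate-cysteine ligase, its rate-limiting enzyme, moved in opposite directions. The catalytic subunit gene GCLC stood at 144 ± 7.70 in -dox and 114 ± 5.05 CPM in +dox libraries (-0.34, SE 0.06, adjusted p = 1.6e-04). The modifier subunit gene GCLM went from 283 ± 16.2 to 352 ± 11.7 CPM (0.32, SE 0.07, adjusted p = 9.4e-04), a call lost with library size alone (0.13, adjusted p = 0.076). GSS, glutathione synthetase, had 0.09 (SE 0.07, adjusted p = 0.28), and -0.09 (adjusted p = 0.27) with library size alone.

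Among the other genes of glutathione breakdown 1 of 6 tested rose and none fell (0), while 3 fell with library size alone, and 1 each without a filter and without -dox replicate 1. CHAC2, the paralog of CHAC1, was at 10.9 ± 0.936 and 9.02 ± 0.716 CPM (-0.28, SE 0.16, adjusted p = 0.17), with the overlapping gene ASB3, and passed as lower with library size alone (-0.46, adjusted p = 0.027). GGCT, which acts on the gamma-glutamyl amino acids, had 0.20 (SE 0.09, adjusted p = 0.092). LAP3, a leucine aminopeptidase that can cleave cysteinylglycine, rose from 391 ± 14.3 to 575 ± 16.6 CPM (0.56, SE 0.06, adjusted p = 8.6e-07).

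Glutathione conjugation and export held the widest range, with 3 rises and 2 falls among 8 tested (3 and 4 with library size alone). HPGDS, a glutathione-dependent prostaglandin D synthase of the sigma class of transferases, had 30, 7 and 24 counts in -dox and 105 and 121 in +dox libraries. Its level rose from 1.26 ± 0.754 to 10.1 ± 1.73 CPM (3.01, SE 0.33, adjusted p = 1.9e-06), and both +dox libraries lay above every -dox library. GSTK1, of the kappa class, rose from 5.25 ± 0.284 to 12.2 ± 0.932 CPM (1.21, SE 0.17, adjusted p = 2.9e-05). GSTT1, of the theta class, had few counts, 20, 17 and 4 in -dox and 25 and 16 in +dox libraries. Its log2 fold change was 1.13 (SE 0.45, adjusted p = 0.052). GSTT1 passed by edgeR's exact test (adjusted p = 0.014), with the replicate block (1.53, adjusted p = 0.035) and without -dox replicate 2 (1.42, adjusted p = 0.037). The block and the fit without -dox replicate 2 are nearly the same fit, since no +dox library has that number and the block sets it aside. The transferase genes thus did not share a direction, with HPGDS and GSTK1 higher in +dox libraries and GSTA3, which was chosen on this contrast, lower. The 3 scalings run kept these signs, but they differ by a shift common to all genes that is small beside these values. GLO1, the glutathione-dependent glyoxalase, rose from 97.0 ± 4.70 to 179 ± 1.39 CPM (0.89, SE 0.05, adjusted p = 2.1e-09). HAGH, the next enzyme of that route, had -0.31 (SE 0.11, adjusted p = 0.035), a call lost in 5 of 5 fits that left out 1 library (-0.33 to -0.29, adjusted p from 0.055 to 0.11). The exporter gene ABCC5 fell by 0.57 (SE 0.07, adjusted p = 3.1e-06), and ABCC1, which exports glutathione conjugates, was at 574 ± 0.663 and 576 ± 13.3 CPM (0.00, SE 0.05, adjusted p = 0.97). With library size alone ABCC1 came to -0.18 (adjusted p = 0.0044).

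Of 15 tested genes of the glutathione and thioredoxin redox systems, 5 rose and 3 fell, against 3 and 6 with library size alone. TXNRD1, the cytosolic thioredoxin reductase, which can also supply electrons to reduce cystine, fell from 243 ± 5.28 to 127 ± 4.11 CPM (-0.94, SE 0.07, adjusted p = 1.3e-08). Its substrate gene TXN, thioredoxin, rose from 327 ± 15.4 to 408 ± 5.21 CPM (0.32, SE 0.06, adjusted p = 5.0e-04). With library size alone TXN came to 0.14 (adjusted p = 0.049). The peroxiredoxin genes PRDX4 (0.66, SE 0.06, adjusted p = 4.4e-07) and PRDX3 (0.36, SE 0.05, adjusted p = 5.2e-05) rose as well. SOD1, a superoxide dismutase, fell by 0.20 (SE 0.06, adjusted p = 0.0091; -0.18 and adjusted p = 0.061 without +dox replicate 1). GSR, GPX1 and GPX4 were not matched and are not analysed here.

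**Figure D3:**
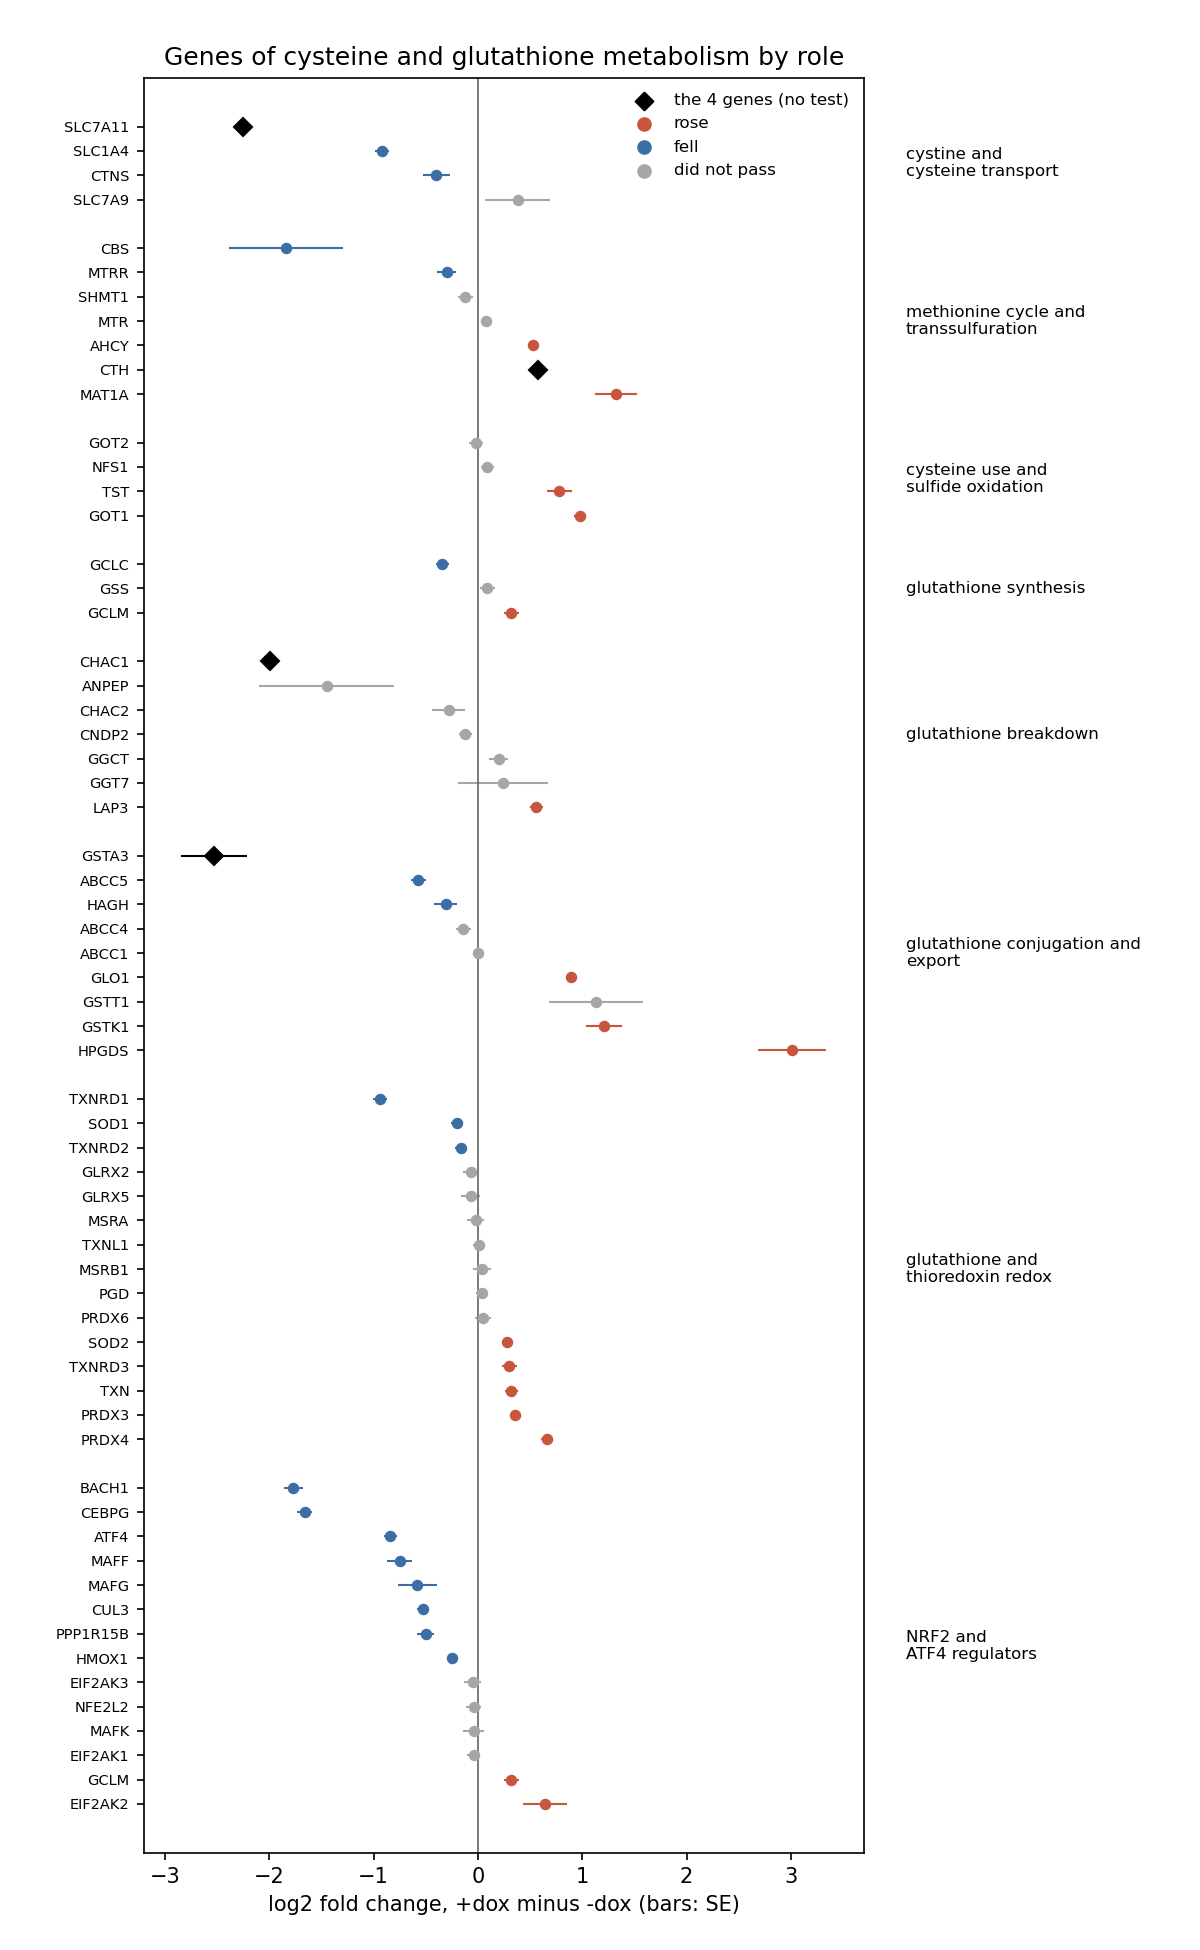
Log2 fold change of +dox against -dox (bars are SE) of the tested genes in 8 role lists, with SLC7A11, CTH, CHAC1 and GSTA3 as black diamonds beside the genes of their role. Red marks genes that rose, blue genes that fell and grey genes that did not pass; CBS at -1.84 and BACH1 at -1.77 are the lowest tested genes and HPGDS is the highest at 3.01.

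Of 14 tested genes listed as linked to ATF4 and NRF2, 8 fell (57.1%) and 2 rose (14.3%), against 23.7% and 22.6% of all features. The median was -0.37, and with library size alone 11 fell and 0 rose. Besides regulators the list holds HMOX1, an enzyme gene that fell, and the ligase subunit gene GCLM, a rise also counted under glutathione synthesis. BACH1, a repressor of antioxidant genes in mammals, had 1207, 806 and 708 counts in -dox and 191 and 176 in +dox libraries. It fell from 55.6 ± 2.62 to 16.3 ± 0.237 CPM (-1.77, SE 0.09, adjusted p = 4.2e-10), with the +dox libraries far below the others. NFE2L2, which encodes NRF2, was at 52.5 ± 2.29 and 50.8 ± 1.78 CPM (-0.04, SE 0.07, adjusted p = 0.64), and came to -0.23 (adjusted p = 0.015) with library size alone. ATF4 levels were 1.79-fold lower in +dox libraries (-0.84, SE 0.06, adjusted p = 1.3e-08), and CEBPG, a partner of ATF4, fell by 1.66 (SE 0.07, adjusted p = 5.3e-11). Of the known mammalian ATF4 targets among the genes described here, SLC7A11 and CHAC1 thus had the sign of ATF4 RNA and CTH had the opposite sign. Only RNA was measured, and a part of ATF4 in these differences was not tested. EIF2AK2, a kinase of the stress response, rose by 0.64 (SE 0.21, adjusted p = 0.020). That call was lost without -dox replicate 1 (0.57, adjusted p = 0.060), +dox replicate 1 (0.67, adjusted p = 0.065) or +dox replicate 3 (0.61, adjusted p = 0.092). Scaling by library size alone gave 0.46 (adjusted p = 0.083), no filter 0.54 (adjusted p = 0.16) and the replicate block 0.66 (adjusted p = 0.052).

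The genome around each gene was read from the nearest feature on either side, and 0 of the 4 genes overlapped another feature. Of these 8 neighbours 5 were tested, of which 2 fell and none rose (0). Among all features 23.7% fell and 22.6% rose, and with 5 neighbours nothing is read from the count. LOC100859645, which starts 254 bases after the end of GSTA3, had 2943, 2059 and 1807 counts in -dox and 800 and 723 in +dox libraries. Its level fell from 140 ± 9.62 to 67.5 ± 0.058 CPM (-1.05, SE 0.06, adjusted p = 2.7e-09), with both +dox libraries far below the others. The span of LOC100859645 holds GSTA2, at 1 to 5 counts per library, and XM_001235593.2. The latter, a feature without a symbol, was named after its values were seen and also fell (-1.19, SE 0.13, adjusted p = 2.4e-06). Reads of these 3 features may not be separated. On the other side GSTA4 had 1 to 3 counts per library. LOC396380, the next feature, which RefSeq also lists as GSTAL3, was at 2.88 ± 0.412 and 4.14 ± 0.703 CPM (0.53, SE 0.27, adjusted p = 0.12). TMEM14A, after the end of LOC100859645, had -0.25 (SE 0.15, adjusted p = 0.20). No extent of a low stretch is read from these values. GSTA3 was chosen on this contrast, and GSTA4 and GSTA2 had too few counts to test. LOC396380 and TMEM14A were likewise chosen after their values were seen.

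**Figure D4:**
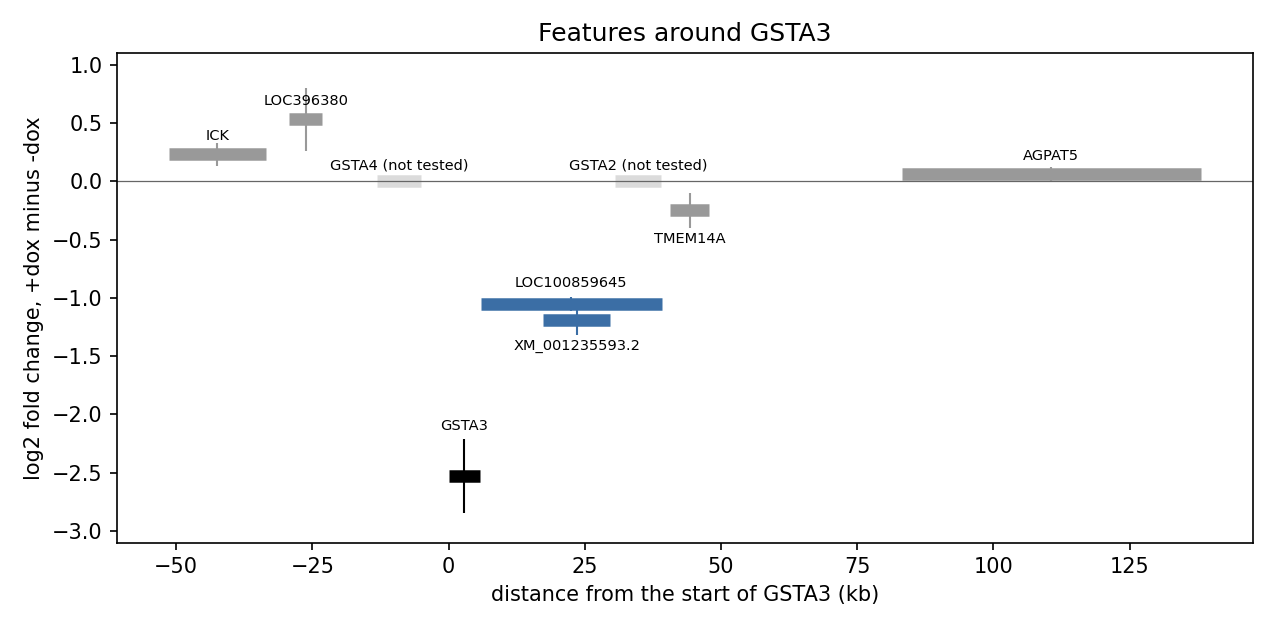
Log2 fold change of +dox against -dox (vertical axis, thin bars are SE) of the features around GSTA3, drawn to scale by distance from its start in kb. GSTA3 (black, no test) lies lowest, LOC100859645 and XM_001235593.2 (blue) fell, and features in grey did not pass; pale features had too few counts to test and are drawn at 0.

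DLL4, a Notch ligand gene 23.7 kb before CHAC1, had 61, 48 and 21 counts in -dox and 15 and 2 in +dox libraries and fell (-1.79, SE 0.52, adjusted p = 0.010). Without +dox replicate 3 it stood at -1.03 (adjusted p = 0.11) and without +dox replicate 1 at -3.75 (adjusted p = 5.0e-04). INO80, a chromatin remodeller gene 8.53 kb after CHAC1, was at 223 ± 7.27 and 203 ± 1.24 CPM (-0.14, SE 0.06, adjusted p = 0.087), and passed as lower with library size alone (-0.32, adjusted p = 4.3e-04) and without a filter (-0.23, adjusted p = 0.011). Next to CTH, ANKRD13C had 0.02 (SE 0.06, adjusted p = 0.77), with -0.16 (adjusted p = 0.045) under library size alone, and PTGER3 had too few counts to test. The nearest features of SLC7A11 lay 250 kb and 236 kb away, and NOCT, the tested one, had -0.18 (SE 0.25, adjusted p = 0.57).

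To see which genes ran most like each of the 4, log2 CPM values centred on each gene's mean were compared over the 5 libraries by their root mean square difference, among 4988 genes with a symbol and at least 5 CPM. Genes close to SLC7A11 were KCNIP1, a potassium channel partner (0.155), and TF, the transferrin gene (0.192). Close to CHAC1 were SIAH2, a ubiquitin ligase (0.079), and KCNIP1 (0.091). SIAH2 was at 78.3, 87.3 and 84.5 CPM in -dox and 22.3 and 23 CPM in +dox libraries, and the groups lay far apart as for CHAC1. The genes nearest to CTH were TK1, thymidine kinase (0.039), C18orf32 (0.045) and PRADC1 (0.048). TK1 was at 54.3, 65.3 and 55.7 CPM against 87.0 and 86.3 CPM, and like CTH it was highest among the -dox libraries in replicate 2. GSTA3 had no close match, since KCNIP1 and SLC5A10 stood at 0.401 and 0.413. KCNIP1 spans KCNMB1, and C18orf32 and SLC5A10 overlap features without a symbol, so their reads may be shared. With 5 libraries this likeness reflects mainly the difference between the groups.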

How the data were processed

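Whole-number counts per RefSeq transcript span on galGal4 were deposited for each library. Per the submitters' processing notes, edgeR 3.2.3, FastQC, Bowtie and TopHat2 2.0.8b were used, with no roles stated. The counting tool, its strand handling and its filters were not given in the sources used here. In these counts the smallest deposited value was 1, taken as no read, and even low counts outnumbered odd ones 1.24 to 1, so both mates of a pair may have been counted. The comparison table that the authors deposited holds, for called transcripts, log2 fold changes, a mean level in log2 CPM, and raw and adjusted p-values up to 0.05; its likelihood ratio score, per the file headers, was not used.

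Of 17036 rows, 8905 (52.3%) received a symbol from RefSeq (GRCg7b), and repeated intervals were reduced, leaving 16143 features. Without strand, antisense reads are not separated. The comparison used edgeR 4.0.16 under R 4.3.3 (filterByExpr, TMM, glmQLFit, glmQLFTest, no covariates, Benjamini-Hochberg over 10079 features, threshold 0.05). TMM factors were 1.04 to 1.07 in -dox and 0.927 to 0.928 in +dox libraries. CPM are given as mean ± SD (n = 3 and n = 2) and SE is the absolute log2 fold change over the square root of F. Log2 CPM for the likeness used 0.5 added to each count. On simulated counts of 9939 features the test recovered 91.9% of log2 changes of 1 and 98.0% of changes of 2, with 7.88% false calls. Few features were changed there, as many up as down, while 46.3% were called in the data. The simulation therefore does not give the false-call rate of these data. The alternatives were library size alone, DESeq2 size factors, no filter, at least 5 CPM, DESeq2 1.42.0, edgeR's exact test, a replicate block, 1 subtracted from every count, each library left out and, chosen after seeing the data, the feature XR_140315.1 left out.

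The 4 genes, the lists and the naming rule were chosen with earlier results of these data known. Named pathway genes are the 3 rises and 3 falls of lowest p per list, fixed key genes and transferases, the nearest neighbours and the 3 genes most like each of the 4; a few results that this rule names are not reported here. No sequence of these genes is used here.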

Additional observations from a re-analysis of the deposited data

How the results depend on the processing

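With scaling by library size alone the log2 fold changes were -2.43 for SLC7A11, -2.17 for CHAC1 and 0.40 for CTH, 1272 features passed as higher and 4119 as lower, so that 23.6% of calls were upward rather than 48.9%, and 31 pathway genes and 4 neighbours fell. ABCC1 (-0.18) and ANKRD13C (-0.16) passed as lower there, and that setting moved the median of all features by -0.18. Which scaling is the better one was not tested. Without a filter CHAC1 came to -2.08, SLC7A11 to -2.34, GSTA3 to -2.63 and CTH to 0.49. In that setting 1533 features passed as higher and 2866 as lower, so that 34.8% of calls were upward. With at least 5 CPM 1 neighbour fell, as DLL4 is then not tested. Leaving out 1 library gave -2.36 to -2.14 for SLC7A11, -3.09 to -2.16 for GSTA3, -2.02 to -1.95 for CHAC1 and 0.53 to 0.67 for CTH, and 1 to 2 neighbours that fell. In each such fit without a +dox library the remaining one was assumed to vary like the others. None of the 4 genes changed sign in any alternative run (0 reversals). These runs reuse the libraries on which the genes were chosen, and the scalings differ by shifts smaller than these values. Nothing is therefore read from the lack of reversals. Of the 37 tested genes followed, 3 changed sign in some setting, ABCC1, ANKRD13C and GSS, which lay at 0.00 to 0.09. They did so with library size alone (GSS at -0.09) and without a filter (-0.09, -0.07 and -0.00), and ABCC1 also without +dox replicate 3 (-0.02). At most 6 of the 37 lost their call in 1 setting, without +dox replicate 3.

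Deviations from the group means correlated at -0.01 between the libraries numbered 1 and -0.03 between those numbered 3. As the 2 +dox libraries deviate as mirror images of each other, these values cannot settle whether equal numbers mark paired libraries. With the replicate number as a block 3856 features changed, 15 pathway genes rose and 14 fell, and the log2 fold changes were -2.27, 0.66 and -2.39 for SLC7A11, CTH and GSTA3. As no +dox library is numbered 2, the block sets -dox replicate 2 aside, and this fit is nearly the same as that without it. Depth limits the tested genes GSTA3, CBS, DLL4, HPGDS, GSTT1, TF and SLC5A10, which had 21 counts or fewer in at least 1 library. The same holds for ANPEP, GGT7 and SLC7A9, which are counted in the lists but not described above. Removing XR_140315.1 left the 4 values as they were to 2 decimals.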

Other observations

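Of the 74 matched genes of cysteine and glutathione metabolism, 16 had too few counts to test, with at most 9 counts in any library. The 6 that stood at the smallest count in all 5 libraries were CAT, which encodes catalase, CDO1, which oxidises cysteine, the glutamate transporter gene SLC1A3, the microsomal transferase gene MGST1, the peroxidase gene GPX8 and CEBPB. Among all features 17.5% stood at that count in every library. The microsomal transferase gene MGST2 had at most 6 counts and GPX3, a secreted peroxidase gene, at most 7. The 6 genes at the smallest count, which is taken as no read, were not detectable at this depth in either group, and the other 10 had reads but too few to compare the groups.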
